A study of Homo sapiens with 3 samples.

Results

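The 36 genes described here encode the enzymes of glycolysis, their isoforms, the carriers that bring glucose in and take lactate out, and the kinases that hold pyruvate back from the citrate cycle. They were taken from the 58302 genes of the deposited count files as the rows whose Ensembl identifier maps in GENCODE release 44 to a fixed list of symbols, and 36 of 36 symbols matched 1 row each. The libraries came from C4-2, an established human prostate adenocarcinoma line derived from LNCaP, labelled as wild type and given no treatment in the labels. There were 3 libraries in 1 group, numbered as replicates 1 to 3, and the labels did not say whether they came from separate cultures. The series also concerned neuroendocrine-like prostate cancer cells and depletion of neuropilin-2 in them, whose libraries were not analysed here, and conditions were therefore not compared. The question addressed was which isoform carried most transcript at each step of the pathway in these adenocarcinoma cells.

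Glycolysis splits glucose into a pair of pyruvate molecules. An early phase spends ATP on phosphorylating the sugar, and a later phase, from glyceraldehyde-3-phosphate onward, returns ATP and NADH. Most steps are served by several genes whose products differ in tissue, kinetics and regulation, with named muscle, liver, brain, blood cell and testis forms. Normal prostate epithelium secretes citrate instead of oxidising it, and many tumours convert much of their glucose to lactate even in the presence of oxygen.

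The libraries held 47513470 to 51200272 reads assigned to genes. Levels are given as TPM, which divides reads by the exon bases of a gene and scales every library to the same sum, as mean ± SD over n = 3 libraries. In bulk RNA, fewer cells that express a gene and less RNA per cell cannot be told apart. The labelled cell type matched its markers: all 8 prostate luminal markers were detected, with a summed level of 3993 to 4049 TPM over the libraries. The 8 neuroendocrine markers summed to 5.65 to 7.16 TPM. Of these, 5 were detected, led by CHGA (2.53 ± 0.336 TPM) and SYP (2.29 ± 0.312 TPM), and NEUROD1 had 0 reads. Markers of tissues whose glycolytic isoforms are listed here were low in sum: 7 blood cell markers reached 1.93 to 2.29 TPM, 7 skeletal muscle markers 1.34 to 1.98 TPM, 4 liver markers 3.06 to 4.57 TPM and 6 germ cell markers 9.71 to 10.7 TPM. HBB and CD3E among the blood markers, MYL1 among the muscle markers, and PRM1, PRM2, TNP1 and DAZL among the germ cell markers had 0 reads, and SYCP3 held 7.86 ± 0.352 TPM of the germ cell sum.

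Of the 36 genes, 31 were detected, meaning at least 10 reads in every library, against 71.8% of all 19708 protein-coding genes. A mean of 1 TPM or more was reached by 30 genes, against 62.7% of protein-coding genes. The median level was 49.0 TPM, where that of all protein-coding genes was 5.43 TPM, and 16 of the 36 lay at or above the 90th percentile of protein-coding genes. Together the 36 genes took 1.48 ± 0.0184% of reads. The 5 genes below the detection limit were PGK2, PGAM2, PKLR, LDHC and PDK4. The highest levels were those of ENO1 at 1811 ± 22.6 TPM and GAPDH at 1775 ± 69.2 TPM, whose ranges over the libraries overlapped, and then TPI1 at 1417 ± 8.40 TPM, ALDOA at 797 ± 18.9 TPM and PKM at 700.1 ± 6.03 TPM. This order depends on the length by which reads are divided. GAPDH came before ENO1 when only unshared exon bases were counted (1968 ± 76.4 and 1780 ± 22.1 TPM). With the length of the canonical transcript in place of all exon bases, GAPDH (2728 ± 107 TPM) and ENO1 (2666 ± 36.02 TPM) were followed by ALDOA (1982 ± 48.9 TPM), TPI1 (1876 ± 14.02 TPM) and PKM (1724 ± 15.1 TPM). The same 5 genes headed the list under all 3 lengths. Of the 34 members with reads, 10 moved by over 1.5-fold with the canonical length, 9 of them upward.

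**Figure D1:**
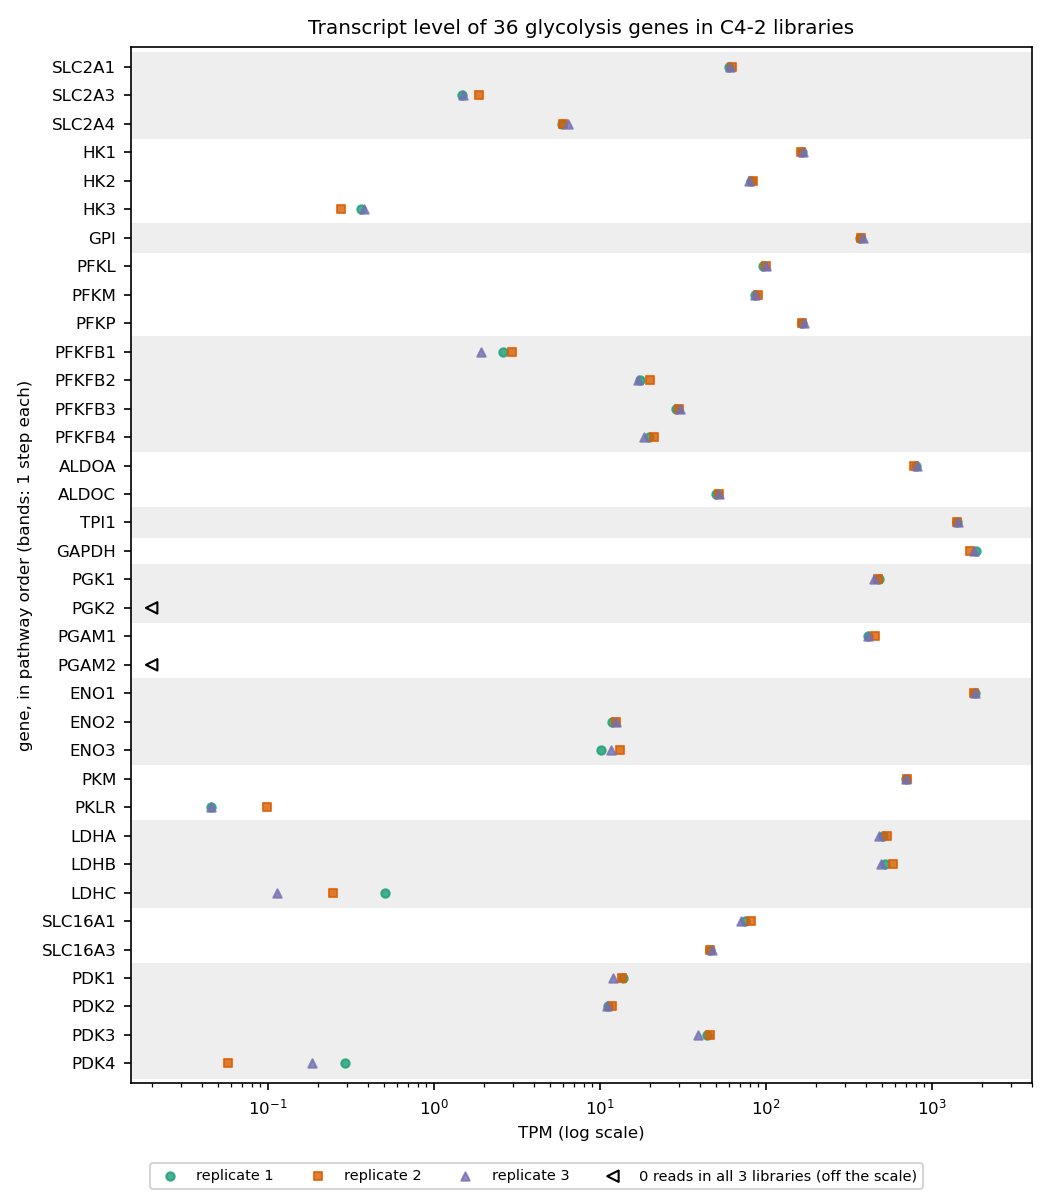
Transcript level in TPM on a log scale for each of the 36 genes in pathway order, with 1 point per library and shaded bands that separate the steps. Apart from the genes with few reads (LDHC, PDK4, PKLR), points of 1 gene lie close together beside the distance between genes, from ENO1 at 1811 TPM to PKLR at 0.0635 TPM, and PGK2 and PGAM2, at 0 reads, are drawn off the scale.

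Summed over the isoforms of a step, the level was uneven along the pathway. Per exon base, enolase had 1835 ± 21.3 TPM, glyceraldehyde-3-phosphate dehydrogenase 1775 ± 69.2 TPM, triosephosphate isomerase 1417 ± 8.40 TPM, lactate dehydrogenase 1036 ± 72.5 TPM, aldolase 849 ± 18.3 TPM and pyruvate kinase 700.1 ± 6.06 TPM. These 6 steps were the highest under each of the 3 lengths, but their order was not the same. With unshared exon bases glyceraldehyde-3-phosphate dehydrogenase (1968 ± 76.4 TPM) passed enolase (1803 ± 20.8 TPM). It did so with canonical lengths too, by less than its SD (2728 ± 107 and 2704 ± 33.9 TPM), and there aldolase (2044 ± 48.5 TPM) passed both triosephosphate isomerase (1876 ± 14.02 TPM) and lactate dehydrogenase (1732 ± 116 TPM). In the middle lay phosphoglycerate kinase with 468 ± 15.9 TPM, phosphoglycerate mutase with 426 ± 24.8 TPM, glucose-6-phosphate isomerase with 375 ± 7.82 TPM and phosphofructokinase-1 with 353 ± 4.16 TPM. With canonical lengths the order of these 4 changed. Glucose-6-phosphate isomerase (548 ± 12.6 TPM) was then above phosphofructokinase-1 (541 ± 7.54 TPM) by less than its SD. Phosphoglycerate mutase (402 ± 23.1 TPM) and phosphoglycerate kinase (349 ± 11.2 TPM) followed. Hexokinase had 247 ± 1.02 TPM and glucose uptake 68.7 ± 1.259 TPM. Regulators also summed low, with 70.1 ± 3.42 TPM for phosphofructokinase-2 and 67.6 ± 4.94 TPM for the pyruvate dehydrogenase kinases. Transcript levels do not give enzyme activity.

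**Figure D2:**
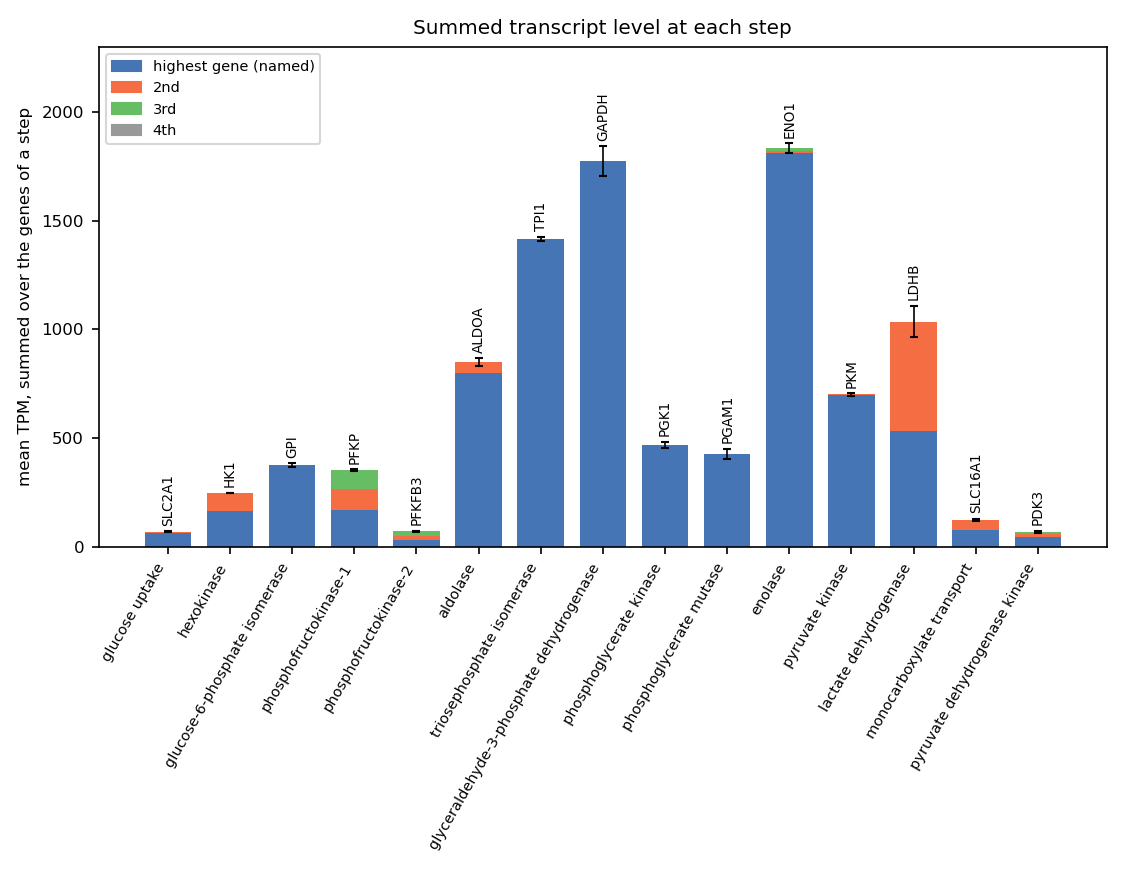
Mean TPM summed over the genes of each step, in pathway order, with each gene as a stacked segment from the highest at the bottom, the highest gene named, and the SD of the sum over 3 libraries as an error bar. Levels are per exon base, and the tallest bars are enolase (1835 TPM) and glyceraldehyde-3-phosphate dehydrogenase (1775 TPM), and lactate dehydrogenase is the tall bar with 2 segments of like height. The order of the tall bars changes with the length used.

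The order of isoforms was compared within each library in 13 pairs, as the difference in log2(TPM + 0.1). In all 13 pairs the difference had 1 sign in 3 of 3 libraries. The exact two-sided sign-flip permutation test gave p = 0.25 for every pair, also after adjustment over the 13, which is the smallest p that 3 libraries allow, so no pair could pass 0.05. The differences are therefore set against their SD over the libraries. A second uncertainty lies in the length, because the files count reads over all annotated exons, whose bases exceeded the length of the canonical transcript by a median factor of 1.62 (range 0.859 to 3.75). Where another length turned an order round, this is stated beside the pair.

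Among the 3 listed glucose carriers, SLC2A1, the widespread carrier GLUT1, made up 88.7 ± 0.340% of the summed TPM. This share leaves out carrier genes that are not members, such as SLC2A8 (31.5 ± 0.983 TPM) and SLC2A6 (28.7 ± 0.607 TPM). SLC2A1 (chromosome 1, 42925375 to 42959173, minus strand, GRCh38) had 60.1, 62.1 and 60.6 TPM in replicates 1 to 3. SLC2A4, the insulin-responsive carrier GLUT4 of muscle and fat, had 5.90, 6.002 and 6.47 TPM, and SLC2A3, the high-affinity neuronal carrier GLUT3, had 1.48, 1.88 and 1.497 TPM. The 3 carriers did not overlap in any library, and SLC2A1 minus SLC2A3 was 5.16 ± 0.158 log2 units. SLC2A3 has close copies: the 3 pseudogenes named after it held 53, 78 and 101 reads, beside 153, 178 and 154 reads of the gene itself, so its level is uncertain.

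Both broadly expressed hexokinases, which trap glucose as glucose-6-phosphate, were abundant, and HK1 led HK2. HK2, the form raised in many tumours, had 80.9, 84.1 and 79.1 TPM, against 164, 163 and 167 TPM of HK1, the form most tissues use. HK2 minus HK1 was −1.02 ± 0.0614 log2 units, with no overlap, which puts HK1 2.03-fold above HK2. With canonical lengths it was −1.66 ± 0.0614, or 3.17-fold. Among the 3 listed hexokinases, HK1 took 66.9 ± 0.927% of the step per exon base and 75.9% with canonical lengths. These shares leave out genes that are not members, such as the ADP-dependent kinase ADPGK (42.7 ± 2.51 TPM). HK3, found mainly in white blood cells, had 20, 14 and 21 reads (0.340 ± 0.0563 TPM, percentile 29.9 among protein-coding genes). GPI, the single isomerase of the next step, lay at 370, 371 and 384 TPM.

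All 3 phosphofructokinase-1 genes were expressed at comparable levels, and none made up most of the step. This enzyme catalyses the committed step, and its subunits are named after liver (PFKL), muscle (PFKM) and platelet (PFKP). PFKL had 96.6, 99.7 and 99.8 TPM, PFKM 86.5, 89.8 and 85.7 TPM and PFKP 165, 165 and 170.5 TPM. PFKP was above the other two in every library and held 47.3 ± 0.650% of the step. PFKL minus PFKP was −0.76 ± 0.0249 log2 units and PFKL minus PFKM 0.18 ± 0.0382. With canonical transcript lengths PFKL minus PFKP shrank to −0.02 ± 0.0249, within its SD, and by reads alone it turned to 0.12, so the lead of PFKP depends on the length. PFKM shares 8.62% of its exon bases with SENP1, whose overlapping reads the counting drops.

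The 4 bifunctional enzymes that make and remove fructose-2,6-bisphosphate, the activator of phosphofructokinase-1, were all detected. PFKFB3, the form with the strongest kinase bias, had 28.7, 30.02 and 30.6 TPM, the hypoxia-responsive PFKFB4 19.8, 21.1 and 18.4 TPM and the heart form PFKFB2 17.3, 19.9 and 16.9 TPM. PFKFB3 was highest in each library, with 42.5 ± 2.33% of the step, and the ranges of PFKFB4 and PFKFB2 overlapped. PFKFB1, the liver and muscle form, was low at 2.60, 2.97 and 1.92 TPM. PFKFB2 minus PFKFB3 was −0.72 ± 0.131 log2 units, and by reads alone 0.01, since the exons of PFKFB2 cover 10197 bases and those of PFKFB3 6114.

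Aldolase cleaves the 6-carbon sugar, and ALDOA, the muscle and general form, dominated over ALDOC, the brain form. ALDOA (chromosome 16, 30053090 to 30070457, plus strand) had 806, 776 and 811 TPM and ALDOC 49.8, 52.4 and 52.4 TPM. ALDOA minus ALDOC was 3.95 ± 0.0648 log2 units, or 15.4-fold, and ALDOA held 93.9 ± 0.257% of the step. With canonical lengths the difference was 4.99 ± 0.0648, or 31.8-fold, and by reads alone 5.02. Both genes share part of their exon bases with another gene, 8.45% for ALDOA and 10.1% for ALDOC.

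TPI1 and GAPDH, each the only listed gene of its step, were among the most abundant messages of these cells. TPI1, which interconverts the 2 triose phosphates, had 1419, 1409 and 1425 TPM, and GAPDH, which makes the first NADH, had 1831, 1698 and 1797 TPM. Both stood at percentile 99.8 among protein-coding genes. Another gene covers 14.2% of the exon bases of GAPDH, which has 65 annotated pseudogenes, 31 of which held reads. Those pseudogenes held 580, 561 and 586 reads, 0.665 ± 0.0445% of the reads of the gene and its copies. Reads that map equally to gene and copy are dropped by the counting, so the loss from GAPDH itself is not measured by this share.

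At the phosphoglycerate kinase step, which yields the first ATP, PGK1 was the form detected. PGK1 (X chromosome, 78065188 to 78129296, plus strand) had 479, 474 and 449 TPM. PGK2, the retrogene of sperm cells, was at 0 reads throughout, and a count of 0 allows for up to 3 fragments. Low counts were mostly even, so both mates of a fragment seem to be counted, which makes this 6 reads per library. That is 0.216, 0.235 and 0.217 TPM in replicates 1, 2 and 3. PGK1 was therefore at least 2018-fold higher than PGK2 in the library with the lowest ratio, a limit that covers counting error only.

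PGAM1, the general phosphoglycerate mutase, had 413, 455 and 410.2 TPM. PGAM2, the muscle form, had 0 reads, but all of its 857 exon bases are also annotated in DBNL, and reads there are dropped as ambiguous. A level of PGAM2 can therefore not be read from these counts, and the share of PGAM1 at this step is not interpreted. The 13 pseudogenes named after PGAM1 held 0.893 ± 0.0556% of the reads of the gene and its copies.

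ENO1 made up nearly all enolase transcript, 98.7 ± 0.110%. ENO1 (chromosome 1, 8861002 to 8879249, minus strand) had 1821, 1785 and 1826 TPM. ENO2, the neuronal form used as a neuroendocrine marker, had 11.9, 12.5 and 12.6 TPM, and ENO3, the muscle form, 10.2, 13.2 and 11.6 TPM. ENO1 minus ENO2 was 7.19 ± 0.0508 log2 units, or 146-fold. ENO2 and ENO3 overlapped in range, at 0.671 ± 0.0229% and 0.637 ± 0.0889% of the step, and ENO2 stood at percentile 60.04 among protein-coding genes. ENO2 was thus low beside ENO1, but above the median of all protein-coding genes, 5.43 TPM. It was also above the summed 8 neuroendocrine markers, which reached at most 7.16 TPM.

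Pyruvate kinase, which yields the last ATP, came from PKM. PKM had 695, 707 and 698 TPM, against 2, 4 and 2 reads of PKLR, the liver and red cell gene, which left PKM with 99.991% of the step. PKLR was thus below the detection limit in every library. PKM gives rise to the M1 form of muscle and brain and the M2 form of proliferating cells by use of 1 or the other of a pair of exons. The files give a single count for the gene, with both exons inside it, so the balance of M1 and M2 is not resolved. The pair is shown because it is the part of the gene on which that balance rests, read from hg38 at the coordinates of the deposited annotation, minus strand, 5′ to 3′, with bases that differ between the exons in capitals. The exons are 167 bases each, and 62 positions differ.
M1 exon, chr15:72203022-72203188: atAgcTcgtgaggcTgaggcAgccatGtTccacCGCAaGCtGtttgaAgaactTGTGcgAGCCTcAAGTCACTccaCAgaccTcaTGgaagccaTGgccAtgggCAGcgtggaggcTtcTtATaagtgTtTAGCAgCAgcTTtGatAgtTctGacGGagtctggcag
M2 exon, chr15:72202454-72202620: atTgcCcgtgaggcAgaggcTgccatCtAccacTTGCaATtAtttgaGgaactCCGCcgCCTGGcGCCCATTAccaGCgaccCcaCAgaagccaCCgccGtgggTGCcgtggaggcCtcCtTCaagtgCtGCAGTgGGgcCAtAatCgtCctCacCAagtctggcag
The 105 shared positions amount to 62.9% identity.

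LDHA and LDHB, which interconvert pyruvate and lactate, were expressed at nearly equal levels. LDHA, the muscle subunit that favours lactate formation, had 503, 534 and 478 TPM, and LDHB, the heart subunit that favours the reverse reaction, 522, 579 and 491 TPM. LDHB was the higher in each library, yet the ranges overlapped, and LDHA minus LDHB was only −0.07 ± 0.0418 log2 units. With canonical transcript lengths the difference turned to 0.21 ± 0.0418, and by reads alone, where LDHA had 49583 to 52488 and LDHB 24449 to 26588, to 0.99. LDHA held 48.8 ± 0.722% of the step in TPM, 53.6 ± 0.720% with canonical lengths and 66.5 ± 0.646% of reads. A lead of either subunit is thus not settled by these counts. LDHC, the sperm form, had 18, 8 and 4 reads, or 0.512, 0.248 and 0.114 TPM.

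The promoters of these 2 pairs are shown because the LDH pair is matched in level while 1 gene of the PGK pair had 0 reads. Each is the 250 bases before a transcript start in RefSeq (GRCh38.p14), 5′ to 3′ on the strand of the gene, and capitals mark ACGTG or its reverse complement CACGT. The motif is the core of the element bound by hypoxia-inducible factors, and an E-box of the form CACGTG holds both overlapping spellings and counts once.
LDHA, chr11:18394313-18394562, plus strand: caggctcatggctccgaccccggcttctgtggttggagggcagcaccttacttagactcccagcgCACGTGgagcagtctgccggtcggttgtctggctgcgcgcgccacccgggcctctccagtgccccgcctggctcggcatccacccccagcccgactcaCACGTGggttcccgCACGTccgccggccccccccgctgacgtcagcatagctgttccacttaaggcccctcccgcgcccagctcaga
LDHB, chr12:21657843-21658092, minus strand: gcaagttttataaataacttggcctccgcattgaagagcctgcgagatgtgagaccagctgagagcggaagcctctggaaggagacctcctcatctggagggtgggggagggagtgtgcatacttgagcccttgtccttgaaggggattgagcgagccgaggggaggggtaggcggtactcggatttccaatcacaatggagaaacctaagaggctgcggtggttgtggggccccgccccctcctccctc
PGK1, chrX:78103998-78104247, plus strand: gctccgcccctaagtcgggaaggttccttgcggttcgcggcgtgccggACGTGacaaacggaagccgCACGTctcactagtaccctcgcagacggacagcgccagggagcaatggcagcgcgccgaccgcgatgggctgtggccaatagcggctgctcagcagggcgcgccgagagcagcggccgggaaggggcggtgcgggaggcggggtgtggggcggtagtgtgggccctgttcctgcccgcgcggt
PGK2, chr6:49787286-49787535, minus strand: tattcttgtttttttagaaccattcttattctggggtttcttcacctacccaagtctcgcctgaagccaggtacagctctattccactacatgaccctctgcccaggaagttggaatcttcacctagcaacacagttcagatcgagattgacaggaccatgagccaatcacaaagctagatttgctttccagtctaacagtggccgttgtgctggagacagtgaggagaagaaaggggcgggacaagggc
The LDHA window, the first of 2 for that gene, held 3 such sites and 22 CpG dinucleotides, and that of LDHB none and 9. The second LDHA window, not shown, held no site and 25 CpG. The PGK1 window held 2 sites and 32 CpG, and that of PGK2 none and 4. Among the 32 listed genes with an entry, 21 of 63 windows (33.3%) held a site, against 18.5% of all 35116 windows, and the median CpG count was 18 against 11. The share of windows with a site was 33.3% both for the 57 windows of detected members and for the 6 of the other members. By gene it was 59.3% of 27 detected members and 40% (2) of 5 others, against 21.7% of all 27305 genes with an entry. A share by gene also rises with the number of windows per gene. Members had 63 windows for 32 genes, and all genes 35116 for 27305. Windows of 1 gene can overlap, and both the motif share and the CpG count move with base composition. PFKFB2, SLC2A3, SLC2A4 and SLC16A1 had no entry.

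Both listed lactate carriers were expressed. Shares of this step leave out carrier genes that are not members, such as SLC16A8 (5.60 ± 0.374 TPM) and SLC16A7 (1.33 ± 0.210 TPM). SLC16A1, the carrier MCT1 that moves lactate both ways, had 74.6, 81.6 and 70.7 TPM, and SLC16A3, the low-affinity exporter MCT4, had 45.9, 46.3 and 47.3 TPM. SLC16A1 was higher in each library, by 0.70 ± 0.119 log2 units, and held 61.9 ± 1.95% of the step. This order also depends on the length: the difference was −0.59 ± 0.119 with canonical lengths, since the exons of SLC16A3 cover 8995 bases and its canonical transcript 2599, and −0.06 by reads alone.

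Of the pyruvate dehydrogenase kinases, which switch off the entry of pyruvate into the citrate cycle, PDK3 led. PDK3 had 43.96, 46.02 and 38.8 TPM and held 63.4 ± 0.897% of the step. PDK1, a target of hypoxia-inducible factors, had 13.9, 13.6 and 12.0 TPM, and PDK2, the most widespread form, 11.2, 11.8 and 11.0 TPM. PDK3 was above both in every library and stayed the leader with canonical lengths (67.0 ± 0.916%), but by reads alone PDK1, whose exons cover 14883 bases, led with 52.3 ± 0.829%. PDK1 minus PDK2 was 0.21 ± 0.0876 log2 units. It turned to −0.44 when only unshared exon bases were counted as length, because PDK2 shares 38.6% of its exon bases with SAMD14, and to −0.41 ± 0.0873 with canonical lengths. PDK4, the form of fasting muscle and heart, had 22, 4 and 14 reads, 0.178 ± 0.116 TPM.

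**Figure D3:**
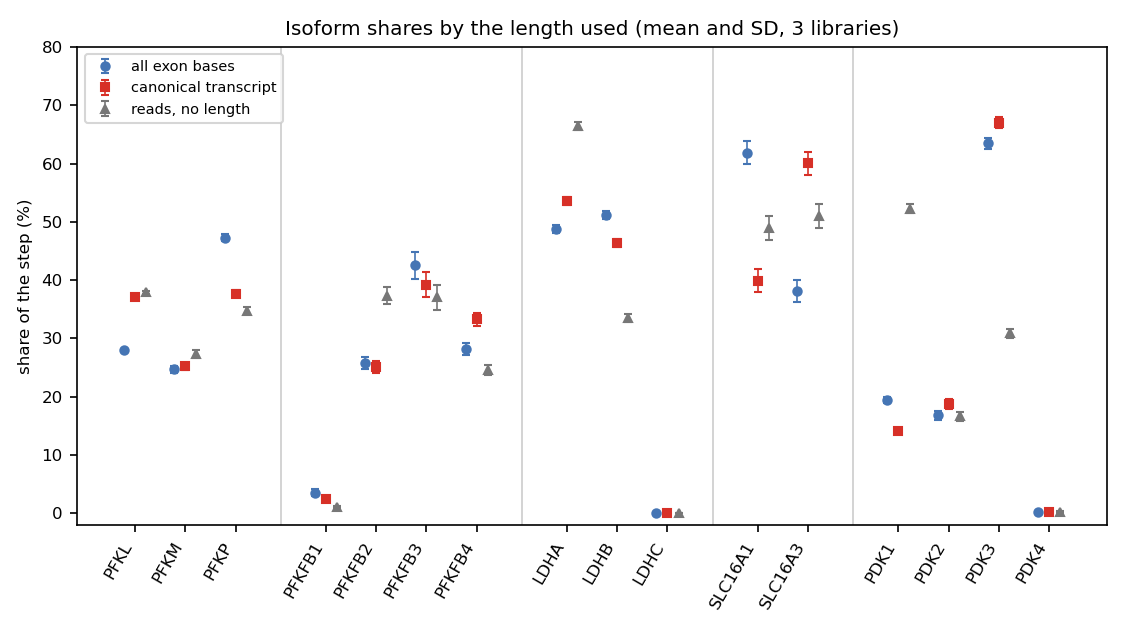
Share of each gene in the summed level of its step (in percent, mean and SD over 3 libraries) for 5 steps, with levels per exon base (circles), per base of the canonical transcript (squares) and as reads without division by length (triangles). The leader of lactate dehydrogenase and of monocarboxylate transport changes between circles and squares, while PDK3 and PFKFB3 lead under both.

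Across the 12 steps with several listed genes, 7 kept their leading gene under each length tried (all exon bases, unshared exon bases, canonical transcripts and reads alone). These were SLC2A1, HK1, ALDOA, PGK1, PGAM1, ENO1 and PKM, and for PGAM1 the rival PGAM2 could not be counted. With canonical lengths 10 steps kept their leader, and the 2 that did not were lactate dehydrogenase and monocarboxylate transport.

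The levels of the glycolysis genes varied little between libraries, but their counts are high enough for small shifts to exceed sampling noise. The coefficient of variation of TPM had a median of 3.14% over the 27 detected members at 10 TPM or more, where that over all 9657 detected genes at this level was 4.89%. A chi-square test of equal abundance over the libraries, with Benjamini-Hochberg adjustment over 21039 detected genes, called 22 of the 31 detected members variable at 0.05, against 46.1% of all genes tested. If the statistic is divided by 2, to allow for fragments whose mates are each counted, 18 members were called, against 17.6% of all genes. Among genes with 1 to 20 reads, 78.4 ± 3.24% had an even count. Over the 22 called members, the highest library exceeded the lowest by 1.04-fold to 1.27-fold, with a median of 1.09-fold.

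GAPDH was lowest in replicate 2, 1.11-fold below the highest library (chi-square test, adjusted p = 4.61e-125), and without replicate 2 its call was lost (adjusted p = 0.222). LDHB was highest in replicate 2, 1.12-fold above replicate 3 (adjusted p = 7.46e-37), and LDHA shifted the same way by 1.06-fold (adjusted p = 1.10e-18). ENO3 shifted furthest among the called members, 1.27-fold between replicates 2 and 1 (adjusted p = 8.90e-05), and was not called without replicate 1 (adjusted p = 0.195). Of the 22 called members, 12 were highest in replicate 3, 8 in replicate 2 and 2 in replicate 1, and without replicate 3 only 13 members were called. These p-values take each read as independent. With the statistic divided by 2, adjusted p was 1.93e-61 for GAPDH and 0.0254 for ENO3.

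These deviations moved with base composition. Over the 31 detected members, the deviation of log2 CPM from the mean of the libraries correlated with the GC content of the canonical transcript at Pearson r = −0.50 in replicate 2 and 0.58 in replicate 3, and at −0.08 in replicate 1. Over the 27 members at 10 TPM or more, r was −0.48, 0.75 and −0.28 in replicates 2, 3 and 1. Over 20845 detected genes r was −0.16, 0.19 and −0.03 in the same order. These are correlations across genes of the same libraries, and deviations of 1 gene sum to 0 over the libraries. The part of GC content in the calls was not tested.

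**Figure D4:**
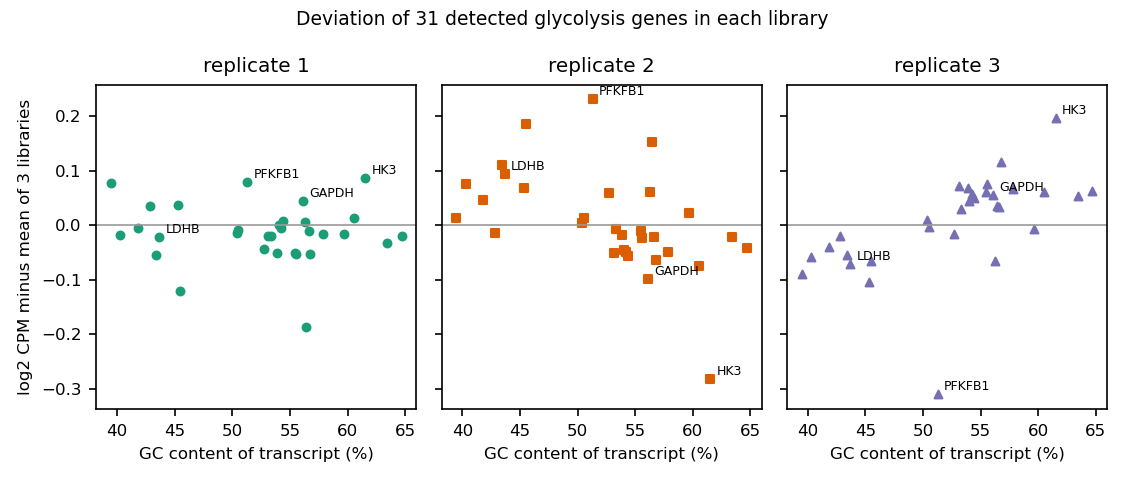
Deviation of log2 CPM from the mean of 3 libraries against GC content of the canonical transcript (percent) for the 31 detected glycolysis genes, 1 panel per library. GC-rich genes lie mostly below 0 in replicate 2 and above 0 in replicate 3 (r = −0.50 and 0.58), and replicate 1 shows no such slope (r = −0.08). The labelled genes are examples at both ends.

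Pathways that branch from glycolysis were covered by lists of other genes, to be set beside the 71.8% of all protein-coding genes that were detected. The lists of gluconeogenesis (50%) and of remaining isoenzymes and regulators (66.7%) lay below that share, and the other lists above it. All 7 genes of the pentose phosphate pathway, which makes NADPH and ribose, were detected, with a median of 69.4 TPM, led by TALDO1 (258 ± 3.06 TPM), PGD (158 ± 1.39 TPM) and TKT (145 ± 2.87 TPM). All 9 genes of pyruvate entry into mitochondria were detected, with a median of 79.8 TPM, and the carrier subunit gene MPC2 (256 ± 28.0 TPM) led DLD (128 ± 7.57 TPM) and DLAT (102 ± 7.75 TPM). MPC1, also a carrier subunit gene, was lower at 23.9 ± 3.12 TPM. Of 8 gluconeogenesis genes 4 were detected: PCK2 (90.4 ± 1.93 TPM), the mitochondrial carboxykinase, G6PC3 (59.0 ± 2.80 TPM), the pyruvate carboxylase gene PC (28.1 ± 1.24 TPM) and FBP2. PCK1 and FBP1 had at most 8 reads in any library, and G6PC1 and G6PC2 had 0 reads.

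Glycogen genes were detected in 8 of 9 cases, led by the brain phosphorylase PYGB (131 ± 2.65 TPM), the synthase GYS1 (73.0 ± 3.60 TPM) and the branching enzyme GBE1 (21.5 ± 2.17 TPM). Of 13 further glucose and lactate carrier genes 11 were detected. BSG, the chaperone that takes MCT1 and MCT4 to the membrane, reached 498 ± 5.61 TPM, while EMB, its relative, had 34.2 ± 1.66 TPM and the intracellular carrier SLC2A8 31.5 ± 0.983 TPM. All 8 hypoxia regulators were detected, led by VHL (66.002 ± 4.03 TPM), HIF1A (46.1 ± 1.44 TPM) and EGLN1 (41.2 ± 1.20 TPM). Of 12 remaining isoenzymes and regulators 8 were detected, led by the D-lactate dehydrogenase LDHD (73.8 ± 2.65 TPM), the ADP-dependent kinase ADPGK (42.7 ± 2.51 TPM) and BPGM (35.3 ± 1.62 TPM), the mutase that makes 2,3-bisphosphoglycerate.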

How the data were processed

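RNA sequencing of 3 C4-2 libraries was analysed. Per the labels' protocols, Trizol RNA was cleaned on columns, depleted of ribosomal RNA (770 ng input) and built into strand-marking NEBNext Ultra II Directional libraries. Per the file headers, the authors deposited unnormalised gene counts made with featureCounts 1.6.3 over the exons of Ensembl release 90 on GRCh38. The recorded options named only annotation, output and threads. Strand is thus ignored, any mates each count by themselves, and reads of several places or several genes are dropped. Read layout was not in the sources used, and paired mates are inferred from the mostly even low counts. Antisense and overlapping genes can therefore gain or lose reads. The submitters' processing notes also name FastQC, Trim Galore, STAR 2.7.0f and an earlier DESeq2.

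Names came from GENCODE release 44, which matched 57532 of 58302 identifiers. TPM was computed from the counts and the length column over all genes. Variation was tested against TMM effective sizes from edgeR 4.0.16 in R 4.3.3, with DESeq2 1.42.0 size factors as an alternative. The test was also run on simulated Poisson counts. Since that is the model the test assumes, the check does not cover mates that are each counted or other spread between libraries. Deviations used log2 CPM with a prior count of 2. Python 3.11.15, numpy 2.4.6, pandas 2.3.3, scipy 1.17.1 and matplotlib 3.10.9 were used. With the chi-square statistic divided by 2, to allow for mates counted separately, every pair of libraries differed in at least 1294 of 21039 genes. Each library therefore counted as 1 sample. The p-values reflect only how these libraries differ from each other, a spread that may be technical. All 36 members are named, and of each other list the 3 highest genes, with further genes named after their values were seen. The members, lists, pairs and shown sequences were chosen with earlier results of these data known. The use of canonical transcript lengths, the addition of pseudogene reads and the step sums under other lengths were chosen after seeing the data. Other alternatives were detection at a mean of 1 TPM, pseudocounts of 0.01 and 1, TPM over protein-coding genes, no filter, and leaving out each library. Intervals and limits cover counting error only.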

Additional observations from a re-analysis of the deposited data

How the results depend on the processing

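No paired analysis was possible because all libraries belong to 1 group. Of 13 isoform differences, 8 held their sign under all 9 alternatives run for them, or under the 8 that could be run for PGAM1 minus PGAM2. Not dividing by length turned PFKL minus PFKP to 0.12, PFKFB2 minus PFKFB3 to 0.0129, LDHA minus LDHB to 0.99 and SLC16A1 minus SLC16A3 to −0.0601. Canonical transcript lengths turned LDHA minus LDHB to 0.21, SLC16A1 minus SLC16A3 to −0.59 and PDK1 minus PDK2 to −0.41, and unshared exon bases turned PDK1 minus PDK2 to −0.44. These settings differ from the reported one by length alone. With canonical lengths HK1 exceeded HK2 by 3.17-fold and ALDOA exceeded ALDOC by 31.8-fold, against 2.03-fold and 15.4-fold per exon base. The number of steps with the same leader was 7 of 12 by reads. Detection at a mean of 1 TPM left 5 of 12 remaining isoenzymes and regulators. The members called variable numbered 13 to 20 when 1 library was left out, with 13 without replicate 3, and 21 or 22 with other scalings or no filter. Over all genes, 3699 were called with the statistic divided by 2, against 9694, and 5180 to 7096 with 1 library left out, where fewer libraries enter the test. Depth limits PGK2, PKLR, LDHC, PDK4 and HK3, which had at most 22 reads in any library.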

Other observations

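Some neighbouring genes of glucose metabolism differed widely in level, while TPI1 and GAPDH were both high. HK1 (165 ± 1.99 TPM) and HKDC1, a further hexokinase gene, lie 2424 bases apart on chromosome 10, and HKDC1 had 6, 2 and 2 reads. LDHA and LDHC lie 3881 bases apart on chromosome 11, at 505 ± 27.9 and 0.291 ± 0.202 TPM. On chromosome 12, TPI1 and ENO2 are separated by 42.8 kb, at 1417 ± 8.40 and 12.3 ± 0.366 TPM. GAPDH lies 329 kb from TPI1, at 1775 ± 69.2 TPM. SLC2A14, the duplicate of SLC2A3, had 6, 4 and 8 reads. These pairs were chosen after their values were seen. TPI1P2, a pseudogene named after TPI1, held 288, 249 and 306 reads, the most of any of the 110 pseudogenes named after members, 58 of which held reads.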
